A study of Homo sapiens with 4 samples.

Results

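The mRNA of 8 genes that control SREBP activity or act in sterol synthesis, transport or uptake was followed in 786-O. This is a human clear cell renal carcinoma line without functional VHL. The genes are SREBF1, SREBF2, SCAP, INSIG1, INSIG2, STARD4, TMEM97 and ACAT2. They were taken by symbol, and all 8 were found among the 12912 genes counted and were among the 12335 genes tested. The control group, 786-O-Ctrl, is VHL-null and has 2 libraries. The restored group, 786-O-VHL, received HA-tagged wild-type VHL from a retroviral vector and also has 2 libraries. The labels give every library as 786-OTR, the line that carries a triple reporter (GFP, luciferase and thymidine kinase), and both groups grew in RPMI1640 with serum. Each group is 1 subline, so VHL and any other difference between the sublines cannot be told apart. No label states that replicates were separate cultures, so p-values measure the spread between these libraries, which may be technical. Whether the control received an empty vector is not given in the sources used here.

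SREBPs are transcription factors that are made as membrane proteins of the endoplasmic reticulum. SCAP escorts them to the Golgi, where proteases release the part that enters the nucleus, and INSIG proteins hold SCAP back when sterols are plentiful. The freed factors bind sterol regulatory elements (SREs) near genes of cholesterol and fatty acid synthesis and of lipoprotein uptake, often together with NF-Y, which binds the CCAAT box. SREBF2 and INSIG1 are themselves known SREBP targets. Clear cell renal carcinoma is named for the appearance that stored lipid and glycogen give its cells.

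Library totals ran from 2807779 counts, in restored replicate 1, to 22141263. Both control columns are headed with the same replicate number, so depth is used to tell them apart. The lowest count of any of the 8 genes in a library was 59. In both groups the replicates varied beyond sampling noise (chi-square per degree of freedom 2.25 and 2.76). VHL itself was at 42.9 and 43.9 CPM (counts scaled to library size, with TMM factors) in the control libraries and at 178 and 163 CPM in the restored ones, as the labels say. Of 8 renal and clear cell carcinoma markers, all were found in every library, PAX2 being lowest at 27.55 CPM. At an edgeR FDR under 0.05, 5 of them were lower and 1 was higher in the restored group. Among all genes tested, 31.9% were lower, 32.6% were higher and 64.5% passed in either direction. Of 7 leukocyte, endothelial and hepatocyte markers only PECAM1 was in the table used here, at 0.427 CPM or less. The part of these marker differences in the results was not tested.

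The 250 bases before the RefSeq start site are shown for SREBF2, INSIG1, STARD4 and TMEM97, because these mRNAs were lower in the restored group and the windows hold letters of the SRE or the CCAAT box. The sequences are from RefSeq on GRCh38.p14, are written in the direction of transcription and end at the base before the start site. SREBF2 is at chr22:41832855-41833104 (plus strand), INSIG1 at chr7:155297628-155297877 (plus strand), STARD4 at chr5:111512536-111512785 (minus strand) and TMEM97 at chr17:28318950-28319199 (plus strand). Capitals mark each match, on either strand, to the SRE letters TCACNCCAC, to the shorter core CACNCCAC within them, to CCAAT or to the E-box CACGTG.
SREBF2: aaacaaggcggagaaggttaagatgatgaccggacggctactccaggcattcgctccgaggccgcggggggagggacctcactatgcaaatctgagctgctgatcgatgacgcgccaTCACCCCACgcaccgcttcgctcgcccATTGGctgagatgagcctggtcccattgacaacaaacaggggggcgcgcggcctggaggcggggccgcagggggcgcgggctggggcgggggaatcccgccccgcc
INSIG1: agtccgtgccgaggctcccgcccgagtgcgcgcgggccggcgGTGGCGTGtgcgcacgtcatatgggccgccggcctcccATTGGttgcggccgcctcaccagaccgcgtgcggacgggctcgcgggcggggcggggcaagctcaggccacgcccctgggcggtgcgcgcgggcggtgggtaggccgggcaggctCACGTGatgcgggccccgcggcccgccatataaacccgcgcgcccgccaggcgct
STARD4: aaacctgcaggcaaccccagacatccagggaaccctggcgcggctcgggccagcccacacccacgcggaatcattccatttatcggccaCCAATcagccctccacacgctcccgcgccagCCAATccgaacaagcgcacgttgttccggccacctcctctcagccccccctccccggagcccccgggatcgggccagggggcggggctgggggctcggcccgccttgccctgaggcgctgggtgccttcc
TMEM97: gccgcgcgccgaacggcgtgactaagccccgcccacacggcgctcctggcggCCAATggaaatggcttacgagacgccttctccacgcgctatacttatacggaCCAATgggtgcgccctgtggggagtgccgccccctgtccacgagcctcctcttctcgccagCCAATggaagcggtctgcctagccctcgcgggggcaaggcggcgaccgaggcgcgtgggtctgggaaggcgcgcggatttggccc
ACAT2 had no window in the promoter set used, and INSIG2 had 2 windows that overlap. SREBF2 held the only full SRE match among the 7 genes with a window, TCACCCCAC from base -133 to -125, and a CCAAT box on the other strand from -106 to -102. INSIG1 held the shorter core from -208 to -201 and a CCAAT box from -170 to -166, both on the other strand. It also held an E-box from -55 to -50. STARD4 held 2 CCAAT boxes and TMEM97 held 3. The windows of SREBF1, SCAP and INSIG2 held neither an SRE core nor a CCAAT box, and that of SCAP held an E-box. Among 35116 windows of this length, 0.883% held the full SRE, 4.87% the core, 32% a CCAAT box and 6.34% an E-box. Letters of the GC box (GGGCGG) were found in all 7 genes and in 42.6% of windows. The hypoxia response cores ACGTG, which lies within the E-box, and GCGTG were found in 4 and 6 of the 7 genes, beside 18.5% and 32.2% of windows. These matches are descriptions of letters and not binding sites.

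After VHL restoration 6 of the 8 mRNAs were lower at an edgeR FDR under 0.05 and none was higher. INSIG1 was 14.3-fold lower and ACAT2 4.50-fold lower, followed by TMEM97 and SREBF2, and STARD4 and SREBF1 fell by less than 2-fold. INSIG2 and SCAP did not pass the test. Across all genes tested, 31.9% were lower, 32.6% were higher and 64.5% passed in either direction. INSIG1 and ACAT2 passed a 4-fold decrease at an FDR under 0.01, which 1.54% of all genes did, and none of the 8 passed a 4-fold increase, which 2.92% did. Both restored libraries lay below both control libraries for the 6 genes that fell (39.2% of all genes) and above them for SCAP (40.8% of all genes), and 80% of all genes showed no overlap in either direction. The median log2 fold change (restored over control) was -0.98 over the 8 genes and 0.02 over all genes. With 2 libraries against 2, a two-sided exact permutation test cannot go below 0.333, so all p-values here come from edgeR's model over all genes. In bulk RNA, fewer expressing cells and less RNA per cell cannot be told apart.

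**Figure D1:**
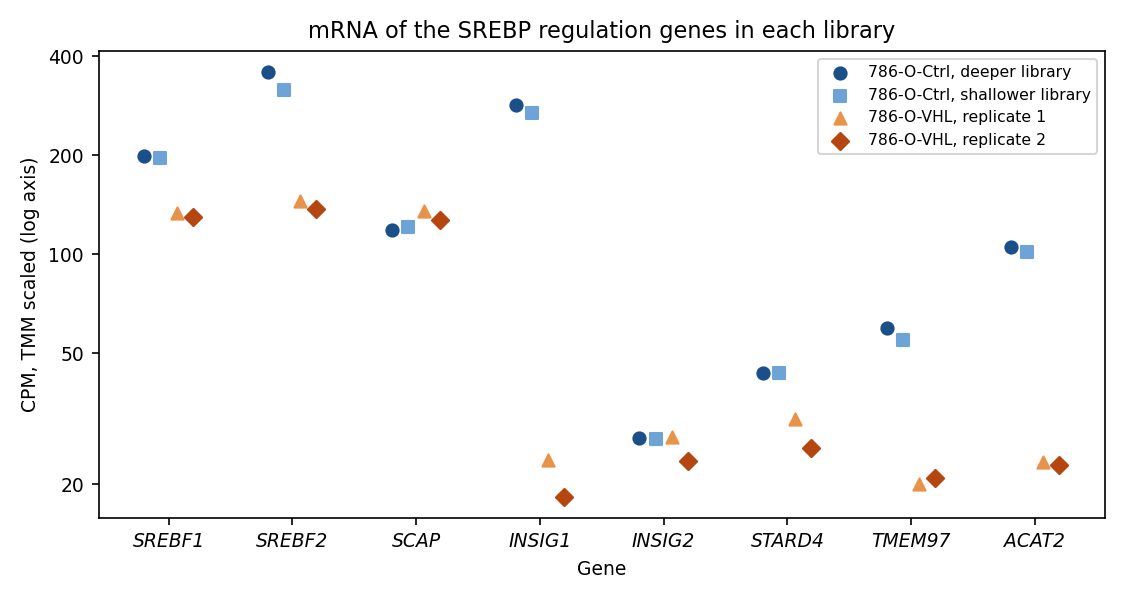
CPM scaled by TMM (log axis) of the 8 genes, with 1 symbol for each of the 4 libraries. The restored libraries of INSIG1 lie at 23.75 and 18.35 CPM against 284.7 and 269.5 CPM in the control, while the symbols of SCAP and INSIG2 lie close together.

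SREBF1 and SREBF2 encode the SREBP precursors. SREBP-1 mainly drives fatty acid synthesis and SREBP-2 mainly cholesterol synthesis. SREBF2 (ENSG00000198911.12, GRCh37 chromosome 22, 42229109 to 42303310, plus strand) was at 358 CPM in the deeper control library, 316.5 in the shallower one, 145 in restored replicate 1 and 137 in replicate 2. The groups did not overlap, with a log2 fold change of -1.27 ± 0.071 (SE; edgeR FDR = 4.5e-15). SREBF1 (ENSG00000072310.17, chromosome 17, 17713713 to 17740316, minus strand) was at 199, 196, 134 and 129.8 CPM in the same order of libraries. It too was lower in both restored libraries, at -0.59 ± 0.0651 (SE; edgeR FDR = 6.01e-09). The 95% intervals of the log2 fold changes, -1.42 to -1.12 for SREBF2 and -0.73 to -0.46 for SREBF1, do not meet, and the difference itself was not tested. Per kilobase of exon, SREBF2 was 1.84 and 1.66 times SREBF1 in the control libraries and 1.11 and 1.08 times in the restored ones. Counts per gene do not separate the SREBP-1a and SREBP-1c transcripts. RAI1, which shares 556 exon bases with SREBF1 on the opposite strand, did not pass the test (log2 fold change -0.06, edgeR FDR = 0.436).

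SCAP is the sterol-sensing escort of the SREBPs. SCAP (ENSG00000114650.20, chromosome 3, 47455171 to 47518616, minus strand) was at 118 CPM in the deeper control library, 121 in the shallower one, 136 in restored replicate 1 and 127 in replicate 2. Both restored libraries were the higher ones, yet the log2 fold change of 0.12 did not pass the test (95% interval -0.02 to 0.25, edgeR FDR = 0.124). With library totals alone as the scaling it was 0.25 and passed (edgeR FDR = 0.0015), but there the median of all genes was 0.15. MBTPS1 and MBTPS2, the Golgi proteases that make the first and the second cut in SREBPs, moved in opposite directions, at -0.19 (edgeR FDR = 0.0118) and 0.37 (edgeR FDR = 0.000404).

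INSIG1 and INSIG2 encode related proteins that retain SCAP. INSIG1 (ENSG00000186480.13, chromosome 7, 155089486 to 155101945, plus strand) had 5995 counts in the deeper control library, 4055 in the shallower one, 70 in restored replicate 1 and 309 in replicate 2, or 284.7, 269.5, 23.75 and 18.35 CPM. The 70 counts have an exact 95% Poisson interval of 18.5 to 30.0 CPM, which covers counting error only and lies far below both control libraries. The log2 fold change of INSIG1 was -3.84 (95% interval -4.02 to -3.65, edgeR FDR = 7.02e-23), which ranked 43 from the largest fall among all genes. INSIG2 (ENSG00000125629.15, chromosome 2, 118846028 to 118868573, plus strand) was at 27.6, 27.4, 27.8 and 23.5 CPM in the same order of libraries. Its groups overlapped, and its log2 fold change of -0.17 did not pass the test (95% interval -0.40 to 0.06, edgeR FDR = 0.195). Without restored replicate 2 the INSIG2 value was 0.01, so its sign depends on that library. The intervals of the INSIG genes do not meet, and the difference itself was not tested.

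Levels of the INSIG genes were then compared per kilobase of exon. INSIG1 mRNA was 11.1 and 10.65 times INSIG2 mRNA in the deeper and the shallower control library, and 0.924 and 0.846 times in restored replicates 1 and 2. Without length these ratios were 10.3, 9.84, 0.854 and 0.782 in the same order. The summed level of both was 85.0 and 80.8 CPM per kilobase in the control and 13.55 and 10.97 in the restored group. Relative to SCAP, this sum was 4.52 and 4.20 in the control libraries and 0.628 and 0.544 in the restored ones. INSIG mRNA thus exceeded SCAP mRNA per kilobase in the control libraries and was below it in the restored libraries. These are ratios of mRNA that rest on the merged exon lengths, and protein was not analysed here.

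**Figure D2:**
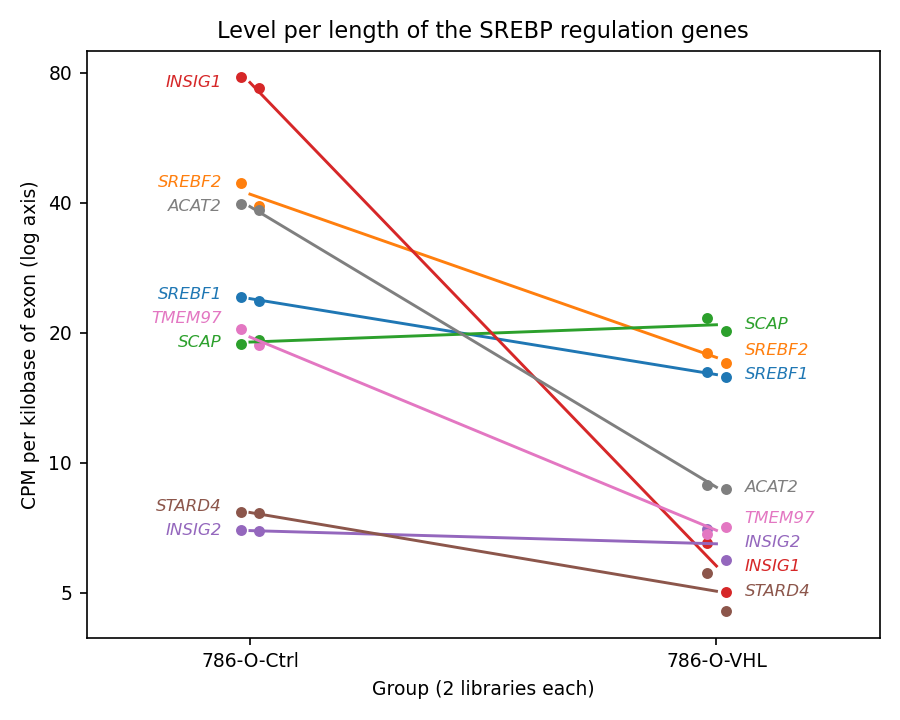
CPM per kilobase of exon (log axis) of the 8 genes in each group, with 1 point per library and lines between the group means. INSIG1 goes from rank 1 in the control to rank 7 after restoration, and SCAP from rank 6 to rank 1. Ranks depend on the merged exon lengths.

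Per kilobase, INSIG1 had the highest control level, 75.9 ± 2.94 CPM per kilobase (SD, n = 2), followed by SREBF2, ACAT2, SREBF1, TMEM97, SCAP, STARD4 and INSIG2, the last at 6.97 ± 0.0459 (SD, n = 2). SREBF2 and ACAT2 overlapped in the control, as did TMEM97 and SCAP. After restoration the order was SCAP, SREBF2, SREBF1, ACAT2, TMEM97, INSIG2, INSIG1 and STARD4, from 20.9 ± 1.00 to 5.04 ± 0.719 CPM per kilobase (SD, n = 2 each). There the neighbours TMEM97 and INSIG2, INSIG2 and INSIG1, and INSIG1 and STARD4 overlapped. Both orders depend on the merged exon lengths, which may exceed those of the transcripts in use.

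ACAT2 is the cytosolic acetoacetyl-CoA thiolase, which joins acetyl-CoA units at the start of the mevalonate pathway. It is not the sterol acyltransferase SOAT2, which has also been called ACAT2. ACAT2 (ENSG00000120437.8, chromosome 6, 160183077 to 160200144, plus strand) was at 105 CPM in the deeper control library, 102 in the shallower one, 23.4 in restored replicate 1 and 22.9 in replicate 2. The groups lay far apart, with a log2 fold change of -2.17 ± 0.0846 (SE; edgeR FDR = 1.61e-18). ACAT2 shares 454 exon bases, 17.2% of its exon length, with TCP1 on the opposite strand, and the use of strand in the counting is not given in the sources used here. Reads of that stretch may therefore come from either gene. TCP1, a chaperonin subunit, also fell, at -0.70 (edgeR FDR = 9.82e-11).

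TMEM97 is a sterol-responsive membrane protein that binds NPC1 and takes part in LDL uptake together with PGRMC1. TMEM97 (ENSG00000109084.14, chromosome 17, 26646226 to 26655711, plus strand) was at 59.7 CPM in the deeper control library, 54.8 in the shallower one, 20.01 in restored replicate 1 and 20.8 in replicate 2. The restored libraries were both lower, with a log2 fold change of -1.47 ± 0.099 (SE; edgeR FDR = 2.49e-13). IFT20, which shares 361 exon bases with TMEM97 on the opposite strand, rose, at 0.30 (edgeR FDR = 0.0365). PGRMC1 fell, at -0.34 (edgeR FDR = 6.31e-05), and NPC1, which exports cholesterol from lysosomes, rose, at 0.33 (edgeR FDR = 4.99e-05).

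STARD4 carries cholesterol between membranes in the cytosol. STARD4 (ENSG00000164211.13, chromosome 5, 110831731 to 110848288, minus strand) was at 43.7 CPM in the deeper control library, 43.5 in the shallower one, 31.55 in restored replicate 1 and 25.8 in replicate 2. Both restored libraries were lower, with a log2 fold change of -0.69 ± 0.102 (SE; edgeR FDR = 1.18e-06). Restored replicates 1 and 2 differed by 0.29 on the log2 scale for STARD4, by 0.37 for INSIG1 and by 0.03 for ACAT2. When single libraries were omitted, the fold change of STARD4 ran from -0.76 to -0.47 and that of INSIG1 from -3.92 to -3.55.

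**Figure D3:**
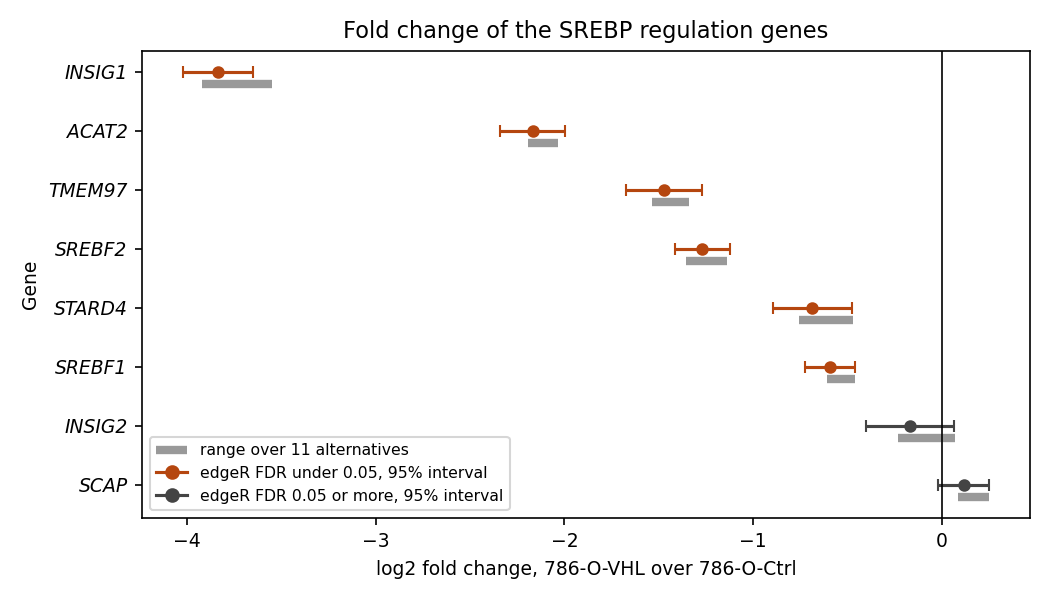
Log2 fold change (restored over control) of the 8 genes, with bars for 95% intervals and thick grey bars for the range over 11 alternative analyses. The grey bar of INSIG2 crosses 0, and that of INSIG1 runs from -3.92 to -3.55.

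Known SREBP target enzymes gave the context of these changes. Of 18 genes of cholesterol synthesis, 16 were lower, none was higher and 2 did not pass. Among all genes, 31.9% were lower and 32.6% were higher. The median log2 fold change of these 18 genes was -1.71. The largest falls were those of LSS (-2.72), the lanosterol synthase, and of DHCR7 (-2.26) and HMGCS1 (-2.23). CYP51A1 (-0.27, edgeR FDR = 0.15) and TM7SF2 (0.21, edgeR FDR = 0.497) did not pass. Of 17 lipogenic genes, 14 were lower and 2 were higher, beside the same shares of all genes, with a median of -0.68. The desaturase FADS2 (-2.20), the fatty acid synthase FASN (-2.08) and the desaturase SCD (-1.55) fell most. MID1IP1, which activates acetyl-CoA carboxylase, rose (1.13, edgeR FDR = 2.26e-13), as did ACSS2, which makes acetyl-CoA from acetate (0.49, edgeR FDR = 9.51e-05), and PNPLA3 did not pass (-0.50, edgeR FDR = 0.0806).

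The next list held genes that transport, cut or degrade SREBPs, SCAP and INSIGs. It also held genes outside these roles, among them CREB3L1 and LPIN1, which were lower, and NR1H2 and NR1H3, which did not pass. Of the 27 genes in all, 12 were lower, 5 were higher and 10 did not pass, and the median log2 fold change was -0.16. Among all genes, 31.9% were lower and 32.6% higher, so the list held a larger share of falls and a smaller one of rises. The share called in either direction was close to the 64.5% of all genes. The largest falls were those of CREB3L1 (-1.12), a transcription factor released from the membrane by the same proteases, and of SEC24C (-0.96) and SEC24D (-0.93), COPII coat proteins that select cargo for the Golgi. SEC24C went from 133 ± 0.632 CPM to 67.1 ± 4.21 CPM (SD, n = 2 each). The largest rises were those of GSK3B (0.39), a kinase that marks nuclear SREBP for degradation, RNF139 (0.38), a ubiquitin ligase of the endoplasmic reticulum, and MBTPS2 (0.37).

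Among 20 genes of lipoprotein uptake and lysosomal export, 9 were lower, 7 were higher and 4 did not pass, beside 31.9% lower and 32.6% higher among all genes, and the median log2 fold change was -0.02. LRP8, of the LDL receptor family, went from 77.1 and 71.8 CPM in the control libraries to 8.82 and 7.54 CPM in the restored ones (-3.26, edgeR FDR = 1.81e-19). The HDL receptor SCARB1 (-1.58) and LIPA (-1.03), the lysosomal acid lipase that frees cholesterol from its esters, fell next. DAB2, an endocytic adaptor, rose most (1.24, edgeR FDR = 8.01e-15), followed by VLDLR (0.40, edgeR FDR = 0.000166), a relative of LRP8, and NPC1. The 4 that did not pass were NPC2, SNX17, MYLIP and GRAMD1B.

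Relatives of ACAT2 formed a further list. Of 9 thiolases, ketone body enzymes and sterol esterification genes, 6 were lower and 2 were higher, beside 64.5% of all genes called in either direction, and the median log2 fold change was -0.38. ACAT1, the mitochondrial counterpart of ACAT2, fell (-0.48, edgeR FDR = 1.75e-06), with a 95% interval from -0.63 to -0.33 beside that of ACAT2 from -2.34 to -1.995, and the difference between them was not tested. SOAT2 (-2.21, edgeR FDR = 0.00205) rests on 33 and 19 control counts and 1 and 5 restored counts. NCEH1, a cholesterol ester hydrolase, also fell (-0.90), and ACAA2 (0.75) and HADHB (0.27), of fatty acid oxidation, rose. SOAT1, a sterol acyltransferase, did not pass (-0.16, edgeR FDR = 0.0512).

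Of 12 genes tested in a list of the START domain family beside STARD4, 5 were lower, 2 were higher and 5 did not pass. The median log2 fold change was -0.18. Counted among the lower ones is STARD3NL (-0.18, edgeR FDR = 0.0376), a relative of STARD3 that lacks the START domain itself. The share called was below the 64.5% of all genes. The count called, 7 here, was 4 with DESeq2, 3 after thinning to the shallowest library and 4 without the shallower control library. ACOT11 (-1.90), STARD8 (-0.75) and STARD7 (-0.62) fell most, ACOT11 from 51 and 37 control counts to 0 and 13 restored counts. DLC1 rose (1.00), as did the sterol carrier STARD5 (0.97, edgeR FDR = 0.0405), which had between 6 and 33 counts in a library. STARD3, which binds cholesterol at late endosomes, fell (-0.18, edgeR FDR = 0.0419). STARD13, PCTP, COL4A3BP, STARD10 and STARD9 did not pass.

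**Figure D4:**
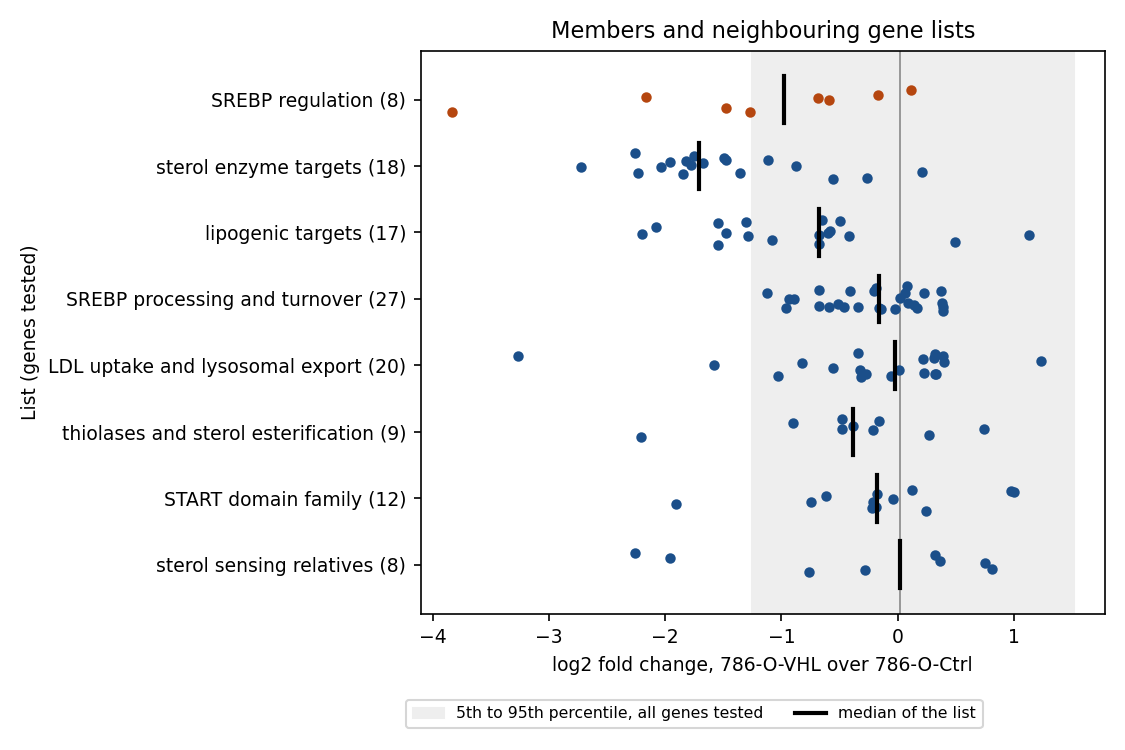
Log2 fold change (restored over control) of each gene of the SREBP regulation set and of 7 lists, with 1 point per gene, black bars at the medians and a grey band from the 5th to the 95th percentile of all genes tested (-1.26 to 1.52). The medians are -0.98 for the SREBP regulation genes and -1.71 for the sterol enzymes, and between -0.68 and 0.02 for the other lists.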

How the data were processed

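Total RNA of 2 libraries per group was sequenced. The authors aligned reads to hg19 (the submitters' processing notes name STAR and CASAVA) and deposited raw counts per gene. The counting tool, its strand setting and its annotation have no source here. In the shallowest library 3 counts, the limit that a count of 0 allows, equal 1.02 CPM, and elsewhere 0.199 CPM or less, for counting error only.

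The fit used edgeR (4.0.16, R 4.3.3) with filterByExpr (minimum count 10), TMM scaling, group as the only term, the quasi-likelihood F test and Benjamini-Hochberg adjustment (FDR) over 12335 genes. Standard errors are those implied by F. Exon lengths, with all annotated exons of a gene merged, came from a GRCh37 annotation with 12749 of the 12912 identifiers. Tested on simulated data for this comparison (12335 genes), edgeR recovered 100 of 100 genes at 2-fold and 100 of 100 at 4-fold, with 5 false calls. The simulation changed few genes, all with high counts, in balanced directions and with a fixed dispersion. Recovery of genes with few counts, or where most genes change, was not tested.

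Genes, lists and motifs were chosen with earlier results of these data known. Named are the 8 genes, their partners, the genes that overlap them, the 3 per direction in each list with the largest change past FDR 0.05 without overlap between groups, and the 5 nearest to INSIG1. Those named as not passing were picked with their values known. LPIN1, NR1H2, NR1H3 and STARD3NL are named to show where a list was wider than its title. From the lists, 5 genes were left out of the counts and of the search for genes like INSIG1, after their values had been seen, and are not reported here. Aliases of 2 list genes were also removed. Alternatives were RLE scaling, library totals, no filter, at least 10 counts in every library, DESeq2 (1.42.0), limma-voom (3.58.1), thinning and leaving out each library.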

Additional observations from a re-analysis of the deposited data

How the results depend on the processing

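Under 11 alternatives, the 6 genes that fell kept their direction and passed the test each time, with a highest FDR of 0.0131 (STARD4, thinned to the shallowest library). The count past a 4-fold change was 2 in each. Of the member fold changes under these alternatives, 85 of 88 kept direction and call. INSIG2, which did not pass in any, turned to 0.07 (0.0695) after thinning and 0.01 (0.0098) without restored replicate 2, and ran from -0.23 to 0.01 with each replicate left out. With library totals alone SCAP passed, at 0.25, the median of all genes moved from 0.02 to 0.15 and the share of higher genes among those called from 50.5% to 62.1%. For the START domain family list the count called was 4 with DESeq2 and 3 after thinning, against 7, and 4 to 5 with each replicate left out. For the sterol sensing relatives it was 4 after thinning, against 7, and for the thiolases and sterol esterification genes 5, against 8. The counts of the other lists stayed within 1.5 times. The cause of these shifts was not tested. With 1 library left out, the lone library of its group is assumed to vary like the others. No paired analysis was possible because both control columns carry the same replicate number. The shallow restored replicate 1 limits SOAT2, ACOT11, STARD5 and SLCO2B1, which have few counts there. Counts there were also low for LSS (12), CREB3L1 (13), SEMA6A (12) and GINS2 (9). The same holds for TM7SF2 (11), PNPLA3 (11) and GRAMD1B (10), which did not pass.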

Other observations

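Relatives of SCAP by its sterol sensing domain, or of TMEM97 by its membrane fold, formed a further list that shares DHCR7, EBP and NPC1 with those above. Of 12 such genes 8 could be tested, of which 4 were lower and 3 were higher, beside 31.9% and 32.6% of all genes, with a median log2 fold change of 0.02, and TLCD1 did not pass. EBP, the sterol isomerase related to TMEM97, was at 44.4 ± 1.92 CPM in the control and 10.4 ± 2.25 CPM after restoration (SD, n = 2 each; log2 fold change -1.96, edgeR FDR = 5.65e-14). DISP1 (0.82, edgeR FDR = 0.00434) and PTCH1 (0.76, edgeR FDR = 8.22e-05), which have a sterol sensing domain and act in Hedgehog signaling, rose.

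The genes nearest to INSIG1 in log2 CPM centred on the control mean, by Euclidean distance over the 4 libraries and among 10256 genes with a mean over 5 CPM, were SEMA6A (0.249), SLCO2B1 (0.407), PXDN (0.628), GINS2 (0.703) and LRP8 (0.784). SEMA6A, a semaphorin, was at 59.3 and 56.5 CPM in the control and 4.07 and 3.62 CPM after restoration. SEMA6A, SLCO2B1 and GINS2 passed the 5 CPM limit through the control group, with restored means of 3.85, 0.785 and 3.57 CPM, and the distance of SLCO2B1 rests on 2 and 15 restored counts. With 2 libraries in each group, nearness mainly reflects a fall of similar size.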
